A study of Homo sapiens with 4 samples.

Results

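The genes of the cytosolic translation initiation factors were examined by RNA-seq in K562-U2AF1 S34F cells, a human leukemia line with erythroid features (K562) that overexpresses the S34F form of the splicing factor U2AF1. Members were the named entries whose symbol starts with EIF and a digit from 1 to 6, with a protein-coding transcript and without the P-and-digits ending of processed pseudogenes. This rule gave 53 genes of 62778 named entries, among 133 symbols with that start. For a symbol on several coding entries the entry of highest mean count was to be taken. As 0 members had several, no measured value decided the choice. The rule left out 73 pseudogene-type symbols, the 3 genes of the eIF4E-binding proteins (whose symbols have the same ending) and 4 symbols without a coding entry. There were 2 libraries from cells given DMSO, the solvent, and 2 from cells given SF1-8 at 30 µM for 48 h. SF1-8 is a small molecule selected for binding to the UHM domain of U2AF1, the surface through which U2AF1 meets partner splicing factors. All 4 libraries carry the S34F transgene on the K562 background, so cells with U2AF1 in its normal form were not part of the comparison. Whether the line is a clone or a pool is not given in the sources used here, and the labels do not say that the libraries of a group are separate cultures. A p-value therefore sets a difference against the spread between these libraries, pooled in part over genes, and that spread may be technical.

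Initiation in the cytosol begins when eIF2, carrying GTP and the initiator tRNA, joins the small ribosomal subunit together with eIF1, eIF1A, eIF3 and eIF5. The eIF4F complex, made of the cap-binding protein eIF4E, the scaffold eIF4G and the helicase eIF4A, recruits this assembly to the capped end of an mRNA, and it scans to the start codon, where eIF5 triggers GTP hydrolysis and eIF5B joins the large subunit. Stress kinases phosphorylate eIF2 and so block its recycling by the exchange factor eIF2B, while eIF4E is held back by its binding proteins under control of mTOR.

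Total counts were 45522905 to 67554610 per library, with DMSO 1 the smallest, and the factor genes held 0.994% to 1.03% of the counts in each. The K562 marker list summed to 278 and 278 FPKM (fragments scaled to the length of the entry and the depth of the library, as deposited) in DMSO 1 and 2 and to 253 and 272 FPKM in SF1-8 1 and 2, with GATA1, the erythroid transcription factor, between 75.9 and 79.1 FPKM. A list of 8 fibroblast or stroma markers summed to 10.2 and 4.85 FPKM in DMSO and to 2.52 and 0.624 FPKM in SF1-8. Of that list, 7 genes were lower with SF1-8, 6 of them with an unadjusted p under 0.05 (edgeR) and none past an adjusted p of 0.05. The part of this signal in the values of the factor genes was not tested. The lymphocyte list summed to 4.33 to 5.79 FPKM and the monocyte or granulocyte list to 4.23 to 5.84 FPKM, with MPO at 0. In bulk RNA, fewer cells of a type and less RNA per cell cannot be told apart.

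Deposited FPKM of the factor mRNAs spanned about 2 orders of magnitude and was close between the groups. EIF3I, a small eIF3 subunit, had the highest level, at 168, 158, 155 and 174 FPKM in DMSO 1, DMSO 2, SF1-8 1 and SF1-8 2, an order of libraries kept in all lists of values that follow. Next came EIF4H, a cofactor of the eIF4A helicase, at 153, 158, 161 and 156 FPKM. The libraries of EIF3I and EIF4H overlapped, so these neighbours in the order of levels cannot be told apart by their spread. EIF4E3, a relative of the cap-binding protein, had the lowest deposited FPKM among the genes tested, at 1.80, 1.58, 1.83 and 1.68, but its entry is shared with FOXP1 and is 4.41 times as long as the exons of EIF4E3, so its level cannot be ranked. Filtering on low counts left 51 factor genes. EIF4E1B, an eIF4E relative of germ cells, had a count of 0 in every library, and EIF1AY, the Y-linked copy of EIF1AX, was also below the filter. Some pseudogene-type entries left out by the rule held reads, while others had none. EIF3FP3 read 15.1, 13.9, 15.4 and 15.2 FPKM, and EIF1AXP1 read 35.7, 22.4, 21.4 and 19.2 FPKM. Whether such entries shared reads with factor genes such as EIF3F and EIF1AX was not tested.

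**Figure D1:**
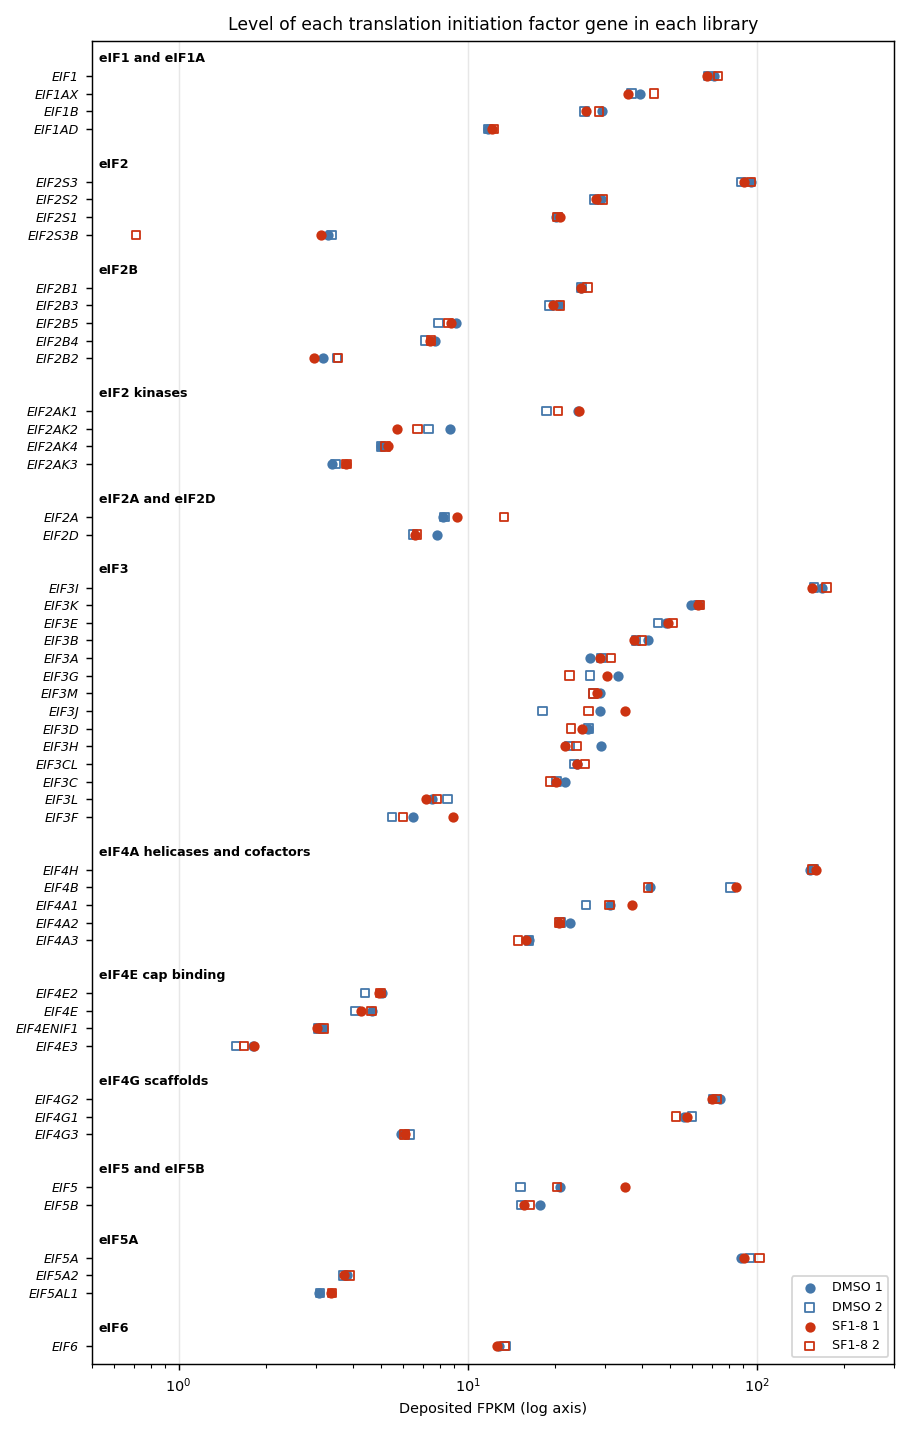
Deposited FPKM of the 51 factor genes tested (log axis), grouped by complex, with blue marks for DMSO, red marks for SF1-8, circles for replicate 1 and squares for replicate 2. For most genes the 4 marks lie close together, and EIF2S3B, EIF4B, EIF5 and EIF3J are spread most widely.

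None of the 51 factor genes passed an adjusted p of 0.05 (edgeR, quasi-likelihood, Benjamini-Hochberg over all genes tested), where 11 of 26167 genes (0.0420%) passed. The smallest adjusted p among them was 0.970, shared by many of them, down to EIF2S2 with an unadjusted p of 0.568 by edgeR. At an unadjusted p under 0.05, edgeR gave 2 factor genes beside 4.33% of all genes. EIF2AK2 was lower with SF1-8, as were 2.54% of all genes at that p, and EIF2A was higher, as were 1.78%. By DESeq2, 4 factor genes had an unadjusted p under 0.05 (EIF4A1 and EIF5 besides those named), beside 3.50% of all genes. None of the factor genes passed after adjustment by DESeq2, where 0.585% of all genes did. For most factor genes the interval was also narrow, as it was for most genes with a mean count of at least 1000. The 95% interval of the log2 fold change lay within 0.5 in either direction, or 1.41-fold, for 42 of the 51, a property of 26.4% of all genes tested and of 76.0% of the 8159 genes with a mean count of at least 1000. For the remaining 9 genes (EIF2S3B, EIF2AK2, EIF2A, EIF3F, EIF3G, EIF3J, EIF4A1, EIF4B and EIF5) the data leave a change beyond that size undecided.

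**Figure D2:**
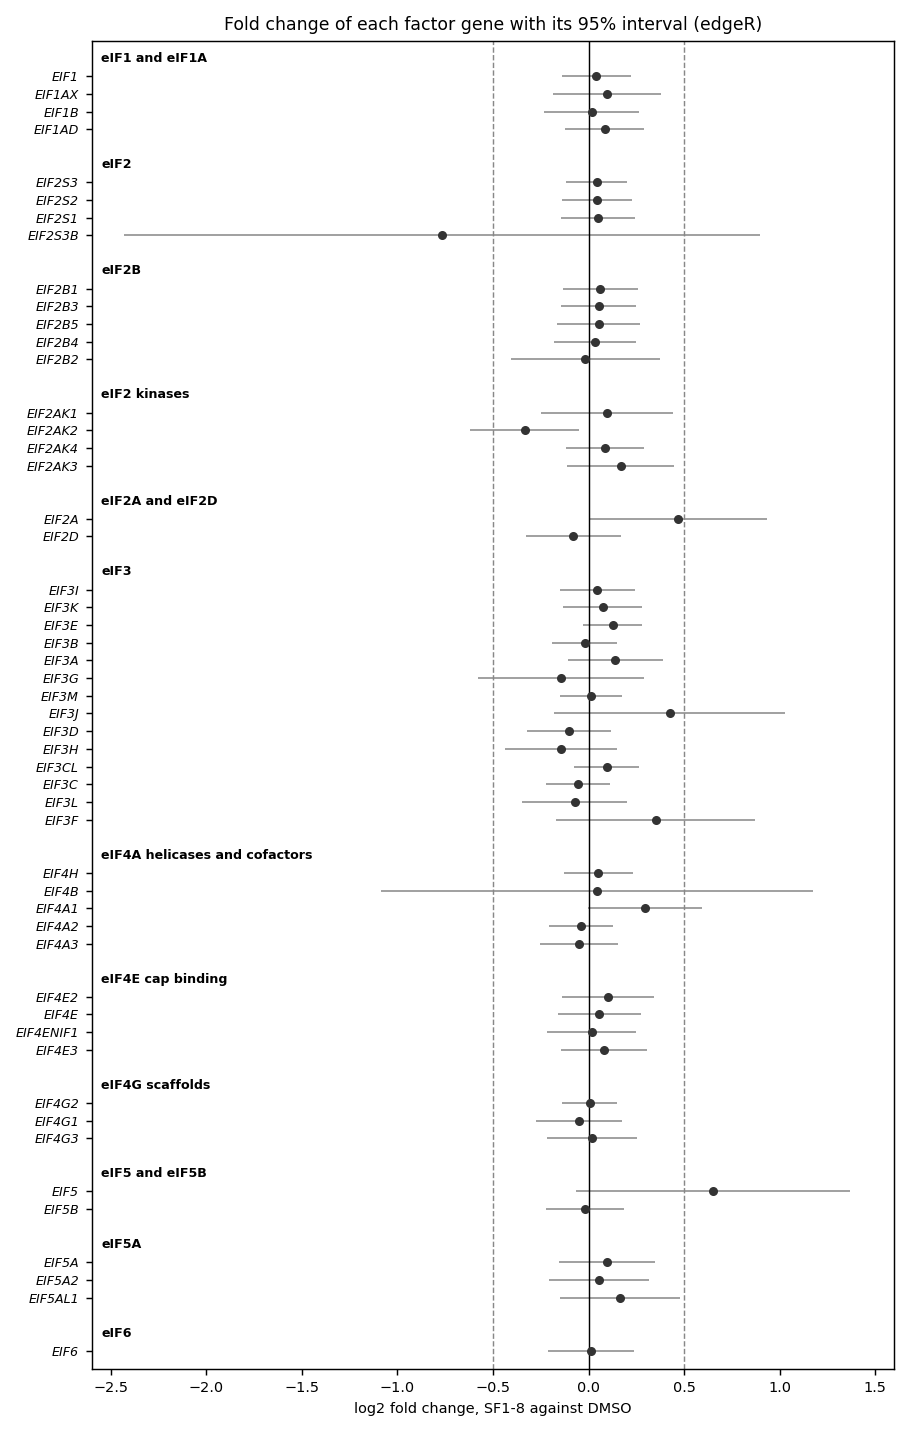
log2 fold change of SF1-8 against DMSO for each factor gene (points) with its 95% interval from edgeR (bars), with dashed lines at -0.5 and 0.5. The intervals of 42 of the 51 genes lie between the dashed lines, and that of EIF2S3B is the widest.

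The median size of the log2 fold change, without its sign, was 0.061 over the factor genes, 0.080 over genes with a mean count of at least 1000 and 0.22 over all genes tested. Of the 51, 49 had such a mean count, so the second group is the nearer yardstick. With the sign, the median was 0.045, beside -0.011 over all genes and 0.031 over the well-counted ones. SF1-8 was above DMSO in 37 factor genes and below in 14 (72.5% above), compared with 48.4% above over all genes. Of the well-counted genes, 61.7% lay above. The split moved with the scaling for the factor genes and the other genes alike. When libraries were scaled by total counts without TMM, the trimmed-mean factors of edgeR, 51.0% of the factor genes lay above, beside 40.3% of all genes and 44.2% of the well-counted ones, with medians of 0.0022, -0.058 and -0.015. By limma on log2(FPKM + 1), 60.8% of the factor genes, 44.0% of all genes and 51.8% of the well-counted ones lay above.

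**Figure D3:**
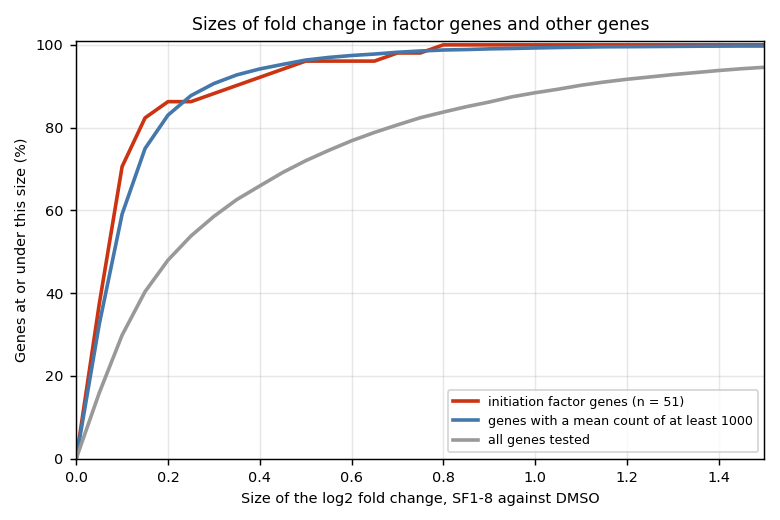
Share of genes (%) whose log2 fold change is at or under the size on the x axis, for the 51 factor genes (red), genes with a mean count of at least 1000 (blue) and all genes tested (grey). The red curve runs near the blue one, and 82.4% of factor genes are at or under 0.15.

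In deposited FPKM, the lower SF1-8 library exceeded the higher DMSO library in 8 factor genes (14.2% of all genes), and the higher SF1-8 library was under the lower DMSO library in 6 (20.0%). Groups therefore did not overlap in 14 of the 51, beside 34.2% of all genes and 31.7% of the well-counted ones. On TMM-normalized counts, which the test uses, 14 factor genes had SF1-8 above (17.3% of all genes) and 4 had it below (18.1%), 18 in all beside 35.5% of all genes. The genes separated on normalized counts but not in FPKM were EIF2B3, EIF2B4, EIF2S2, EIF4E2, EIF5 and EIF5A2, all with SF1-8 above, and those separated in FPKM alone were EIF3D and EIF4A3.

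The eIF1 and eIF1A genes, whose products open the small subunit for scanning and guard start codon choice, had fold changes near 1. EIF1 read 71.4, 68.2, 67.3 and 73.6 FPKM. EIF1AX read 39.4, 36.9, 35.8 and 44.2 FPKM. In both, SF1-8 1 was the lowest library and SF1-8 2 the highest, so the DMSO values fell between those of SF1-8. The log2 fold change was 0.04 for EIF1 (95% interval -0.14 to 0.22) and 0.10 for EIF1AX (-0.19 to 0.38), both with an adjusted p of 0.970 or more by edgeR with Benjamini-Hochberg adjustment. EIF1B, a close relative of EIF1, ranged from 25.4 to 29.2 FPKM. EIF1AD, which carries an eIF1A domain, was at 11.8, 11.8, 12.2 and 12.3 FPKM, with SF1-8 above DMSO by a margin under 1 FPKM.

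The 3 subunits of eIF2 were among the steadiest members. EIF2S1, the alpha subunit that the stress kinases phosphorylate, read 20.2, 20.6, 21.0 and 20.5 FPKM. EIF2S2, the beta subunit, read 29.0, 27.4, 27.8 and 29.3 FPKM. EIF2S3, the gamma subunit that binds GTP and the initiator tRNA, read 95.9, 88.7, 90.6 and 95.8 FPKM. None of the 3 genes had groups apart in FPKM, and their log2 fold changes were 0.05, 0.04 and 0.04 with standard errors of 0.08, 0.07 and 0.06. The deposited FPKM of the gamma subunit stood well above those of alpha and beta in every library. EIF2S3B, a retrocopy of EIF2S3 on chromosome 12, read 3.28, 3.39, 3.12 and 0.712 FPKM. Its value in SF1-8 2 was 4.38-fold below that in SF1-8 1. The log2 fold change of -0.77 (95% interval -2.43 to 0.90) therefore rested on SF1-8 2, and was -0.06 without that library and -2.20 without SF1-8 1. The coding sequences of EIF2S3 and EIF2S3B are 98.2% identical, so reads of the abundant gene could be assigned to the copy.

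The 10 bases before and 15 bases after the annotated start are shown for EIF2S3, EIF2S3B and 3 further factor genes on which later results turn, because many mRNAs of the translation machinery begin with a C followed by a run of pyrimidines (the TOP motif, through which LARP1 and mTOR govern their translation). Sequences are from RefSeq (GRCh38.p14), 5′ to 3′ on the strand of the gene, and capitals mark the run that begins at the start site.
EIF2S3: gatttccttcCTCTTTTggcaacat
EIF2S3B: gactttcttcCTCTTTTggcaacat
EIF2A: cgagcggtttCTCTTTCCgggacaa
EIF3F: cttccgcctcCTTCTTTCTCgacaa
EIF4B: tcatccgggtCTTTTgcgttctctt
These lie at chrX:24054946-24054970, chr12:10505880-10505904, chr3:150546777-150546801, chr11:7987327-7987351 and chr12:53006446-53006470, all on the plus strand. The run of EIF2S3 recurs letter for letter in its copy. A C at the start followed by at least 4 letters C or T was present in 10 of the 45 factor genes with an entry in the promoter table (22.2%), and in 5.14% of 27305 genes. The others were EIF2D, EIF3D, EIF3K, EIF3M and EIF4A2. The median log2 fold change was 0.028 over the 10 genes with such a start (6 above DMSO) and 0.050 over the 33 tested genes without it (26 above). A run of letters at an annotated start is a description and does not show where transcription began in these cells.

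The 5 subunits of eIF2B, the exchange factor that reloads eIF2 with GTP, had log2 fold changes from -0.02 (EIF2B2, beta) to 0.06 (EIF2B1, alpha), and all 5 intervals lay within 0.5. EIF2B1 read 24.7, 24.8, 24.7 and 26.0 FPKM. EIF2B3, the gamma subunit, ranged from 19.2 to 20.9 FPKM. The catalytic epsilon subunit EIF2B5 and the delta subunit EIF2B4 lay lower, at 7.94 to 9.12 and 7.11 to 7.70 FPKM, and EIF2B2 lay at 2.94 to 3.56 FPKM. The deposited FPKM of subunits of the same complex thus differed several-fold in every library, an order that depends on the entry lengths used. The FPKM of the groups overlapped for each, whereas EIF2B3 and EIF2B4 lay slightly above DMSO on TMM-normalized counts.

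Among the 4 kinases of eIF2, EIF2AK2 had the smallest unadjusted p of all factor genes. EIF2AK2 encodes PKR, a kinase activated by double-stranded RNA, and read 8.66, 7.31, 5.71 and 6.70 FPKM. Both SF1-8 libraries were below both DMSO libraries, with SF1-8 2 close to DMSO 2. The log2 fold change was -0.33 (SE 0.11, 95% interval -0.62 to -0.05), with an unadjusted p of 0.0291 and an adjusted p of 0.970 (edgeR). It ran from -0.44 to -0.23 when each library was left out in turn. PKR is known as an interferon-induced gene, and 30 bases around its annotated start are shown for the paired GAAA element (GAAANNGAAA, searched on both strands) of the kind that interferon-activated factors bind, in capitals, from RefSeq (GRCh38.p14, chr2:37156967-37156996, minus strand).
EIF2AK2: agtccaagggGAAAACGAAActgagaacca
The element begins 6 bases before the start and occurs in the windows, from 250 bases before the start to 50 after it, of 5 factor genes (EIF2AK2, EIF2A, EIF3C, EIF3K and EIF6) and of 4.38% of all genes in that table. Of these 5, EIF2A and EIF2AK2 lay in opposite directions.

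The other kinases had log2 fold changes from 0.09 to 0.17. EIF2AK1 encodes HRI, the heme-regulated kinase of erythroid cells, and had the highest deposited FPKM of the 4, at 24.2, 18.8, 24.3 and 20.5. EIF2AK3 encodes PERK, the kinase of the endoplasmic reticulum, and read 3.39, 3.50, 3.79 and 3.81 FPKM. EIF2AK4 encodes GCN2, which senses uncharged tRNA, and read 5.03, 5.02, 5.28 and 5.19 FPKM. HRI overlapped between the groups, whereas PERK and GCN2 were slightly higher in both SF1-8 libraries. The log2 fold changes were 0.10 (95% interval -0.25 to 0.44) for HRI, 0.17 (SE 0.11, -0.11 to 0.45, unadjusted p 0.183 by edgeR) for PERK and 0.09 (-0.12 to 0.29) for GCN2, none of them past the threshold.

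EIF2A, a factor that can deliver initiator tRNA in place of eIF2, read 8.25, 8.31, 9.18 and 13.3 FPKM. The DMSO libraries were alike and both SF1-8 libraries were higher, SF1-8 2 much more than SF1-8 1. Its log2 fold change was 0.47 (SE 0.18, 95% interval 0.0015 to 0.94), with an unadjusted p of 0.0495 and an adjusted p of 0.970 by edgeR with Benjamini-Hochberg adjustment. Leaving out SF1-8 2 gave 0.19, and leaving out SF1-8 1 gave 0.71. EIF2D, which acts in non-canonical initiation and in recycling, read 7.83, 6.49, 6.59 and 6.67 FPKM and overlapped between groups.

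The 14 genes of eIF3, the large scaffold on the small subunit, had a median log2 fold change of 0.029, with 8 above DMSO and 6 below. EIF3A, the largest subunit, read 26.5, 29.0, 28.8 and 31.3 FPKM, a log2 fold change of 0.14 (SE 0.10, 95% interval -0.11 to 0.39, unadjusted p 0.205 by edgeR). Without DMSO 1 it was 0.04 and without DMSO 2 it was 0.26. EIF3E had the narrowest interval among the 10 factor genes of smallest p. It read 48.5, 45.6, 49.4 and 51.4 FPKM, and its log2 fold change was 0.13 (SE 0.06, 95% interval -0.03 to 0.28, unadjusted p 0.0933 by edgeR). EIF3B (37.7 to 42.3 FPKM), EIF3K (59.5 to 63.8 FPKM) and EIF3M (27.2 to 28.7 FPKM) overlapped between groups with log2 fold changes from -0.02 to 0.07. EIF3D, a subunit that can itself bind a cap, read 26.1, 26.2, 24.9 and 22.8 FPKM. Its FPKM values were lower in both SF1-8 libraries, but on TMM-normalized counts the groups overlapped. EIF3G (22.5 to 33.0 FPKM), EIF3H (21.7 to 28.9 FPKM) and EIF3L (7.17 to 8.51 FPKM) also overlapped, with log2 fold changes of -0.14, -0.14 and -0.07. The entry of EIF3L also names AL022311 and RNU6-900P, so its values are those of the merged entry.

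The eIF3 genes with the widest spread were EIF3J and EIF3F. EIF3J, a loosely bound subunit that helps to set the mRNA channel of the small subunit, read 28.7, 18.2, 35.2 and 26.2 FPKM. EIF3F, a subunit with a deubiquitinase-type fold, read 6.49, 5.47, 8.93 and 5.98 FPKM. In each of them DMSO 2 was the lowest library and SF1-8 1 the highest, and DMSO 1 lay above SF1-8 2. The log2 fold change of EIF3J was 0.42 (SE 0.24, 95% interval -0.18 to 1.03, unadjusted p 0.131 by edgeR), from 0.17 without DMSO 2 to 0.74 without DMSO 1. That of EIF3F was 0.35 (SE 0.20, 95% interval -0.17 to 0.87, unadjusted p 0.146 by edgeR), from 0.03 without SF1-8 1 to 0.62 without SF1-8 2. That order, with SF1-8 1 highest and DMSO 2 lowest, was found in 7 factor genes (EIF2AK1, EIF2AK4, EIF3F, EIF3J, EIF4A1, EIF4E3 and EIF5), beside 6.62% of all genes and 7.11% of the well-counted ones. This set was picked after its values were seen and carries no test.

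**Figure D4:**
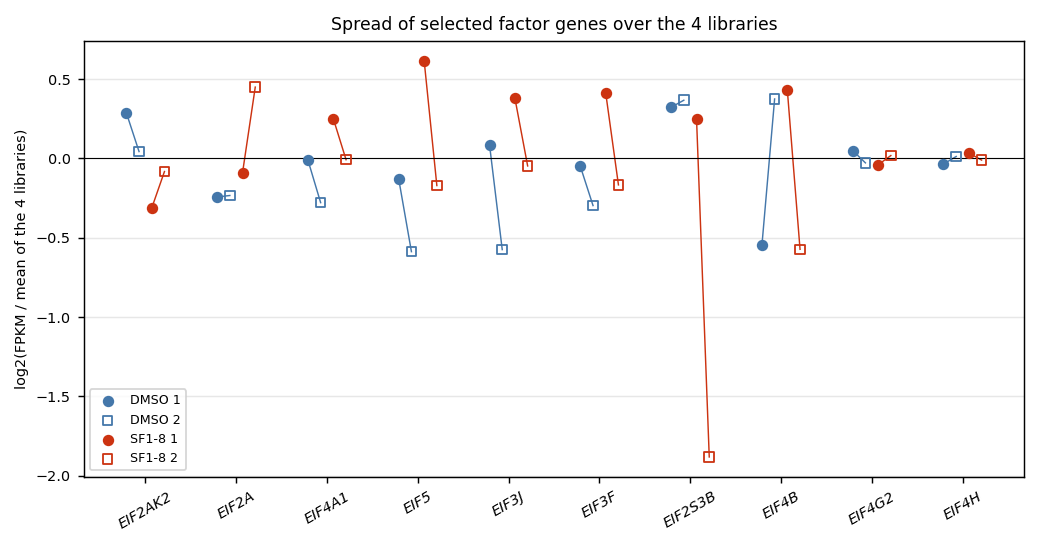
Deposited FPKM of selected factor genes as log2 of the ratio to the mean of the 4 libraries, with blue marks for DMSO, red marks for SF1-8, circles for replicate 1, squares for replicate 2 and lines joining replicates. EIF4G2 and EIF4H serve as steady examples, EIF2S3B is low in SF1-8 2 alone, and EIF4B is high in DMSO 2 and SF1-8 1.

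EIF3C and its near-identical neighbour EIF3CL, on chromosome 16, share 99.9% of their coding sequence, so their reads cannot be separated with confidence. EIF3C read 21.7, 20.3, 20.3 and 19.4 FPKM on an entry that also names NPIPB9. EIF3CL read 23.8, 23.4, 24.0 and 25.5 FPKM on an entry with NPIPB6. EIF3C was lower and EIF3CL higher in both SF1-8 libraries, by -0.06 (95% interval -0.23 to 0.11) and 0.10 (SE 0.07, -0.07 to 0.27, unadjusted p 0.208 by edgeR) on the log2 scale. Because of the shared sequence and the merged entries, these opposite signs are uncertain.

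The genes of the eIF4A helicases and their cofactors held the clearest case of replicate spread. EIF4B, which stimulates the helicase, read 42.9, 81.3, 84.6 and 42.2 FPKM. The replicates differed 1.90-fold in DMSO and 2.01-fold in SF1-8, and the high and low libraries crossed the groups. Its log2 fold change was 0.05 with an interval from -1.08 to 1.17, and it ran from -0.55 to 0.64 when single libraries were left out, so the interval covers 2-fold in either direction. Replicates differing 1.5-fold or more were seen in 2 factor genes in DMSO (EIF3J and EIF4B), beside 35.4% of all genes and 6.25% of the well-counted ones, and in 3 in SF1-8 (EIF2S3B, EIF4B and EIF5), beside 31.3% and 5.41%. EIF4H, the other cofactor, had replicates within 1.03-fold in each group and a log2 fold change of 0.05 (95% interval -0.13 to 0.23).

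EIF4A1, the main helicase of eIF4F, read 31.0, 25.7, 37.1 and 31.0 FPKM. SF1-8 2 exceeded DMSO 1 only beyond the printed digits. Its log2 fold change was 0.30 (SE 0.12, 95% interval -0.0037 to 0.60), with an unadjusted p of 0.0520 by edgeR and 0.0421 by DESeq2 and no pass after adjustment. Leaving out SF1-8 1 gave 0.16, and leaving out SF1-8 2 gave 0.43. Its entry spans chr17:7561919-7582111 (hg38) and also names SENP3, CD68 and 3 small nucleolar RNA genes among others, so the value is that of the merged entry. EIF4A2, the second helicase, read 22.6, 20.9, 20.7 and 20.8 FPKM on an entry with 5 small nucleolar RNA genes. EIF4A3, a relative that serves in the exon junction complex, read 16.4, 16.3, 16.0 and 15.0 FPKM. Both were a little lower in both SF1-8 libraries, with log2 fold changes of -0.04 (95% interval -0.21 to 0.13) and -0.05 (-0.26 to 0.15). The groups of EIF4A3 overlapped on TMM-normalized counts.

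Cap-binding genes had low deposited FPKM, which depends on entry length, and groups that overlapped, apart from EIF4E2 on TMM-normalized counts. EIF4E, which binds the cap in eIF4F, read 4.68, 4.10, 4.29 and 4.65 FPKM, a log2 fold change of 0.06 (95% interval -0.16 to 0.28). Its entry also names TBCAP3 and has an implied length of 18191 bases, 1.29 times that of the exons of EIF4E. The values are thus those of the merged entry, and the level cannot be ranked against other factors. EIF4E2, a cap-binding repressor, ranged from 4.41 to 5.04 FPKM, and EIF4ENIF1, which carries eIF4E into the nucleus and to processing bodies, from 3.01 to 3.17 FPKM. Of the scaffolds, EIF4G1 read 56.2, 59.8, 57.6 and 52.6 FPKM and EIF4G3, its relative, 5.90, 6.30, 6.07 and 6.05 FPKM. EIF4G2, which lacks the eIF4E site and serves cap-independent initiation, read 74.5, 70.6, 70.0 and 72.9 FPKM on an entry that also names SNORD97. The log2 fold changes of EIF4G1, EIF4G3 and EIF4G2 were -0.05 (95% interval -0.27 to 0.18), 0.02 (-0.22 to 0.25) and 0.0060 (-0.14 to 0.15). EIF4G2 had the smallest standard error of any factor gene, 0.06.

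EIF5, which activates the GTPase of eIF2 at the start codon, had the largest positive log2 fold change of the 51, although it did not pass the test. It read 21.0, 15.3, 35.2 and 20.4 FPKM. SF1-8 1 stood above the other libraries, while SF1-8 2 lay just under DMSO 1 in FPKM and just above it on TMM-normalized counts. The log2 fold change was 0.65 (SE 0.28, 95% interval -0.07 to 1.37), or 1.57-fold, with an unadjusted p of 0.0673 by edgeR and 0.0105 by DESeq2 (adjusted p 0.970 and 0.671). It was 0.20 without SF1-8 1 and 1.00 without SF1-8 2. EIF5B, which joins the ribosomal subunits, read 17.9, 15.3, 15.7 and 16.4 FPKM, a log2 fold change of -0.02 (95% interval -0.22 to 0.19).

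EIF5A, the hypusine-carrying factor now known mainly for elongation and termination, read 88.5, 95.1, 90.3 and 103 FPKM, a log2 fold change of 0.10 (95% interval -0.16 to 0.35). EIF5A2 ranged from 3.71 to 3.90 FPKM. EIF5AL1, a copy of EIF5A, read 3.05, 3.08, 3.36 and 3.39 FPKM and was higher in both SF1-8 libraries, at a log2 fold change of 0.16 (95% interval -0.15 to 0.48). Its coding sequence is 92.0% identical to that of EIF5A, relative to the shorter sequence, so reads of the abundant gene could be assigned to the copy. EIF6, which keeps the large subunit from joining too early, read 12.8, 13.6, 12.7 and 13.4 FPKM, a log2 fold change of 0.01 (95% interval -0.21 to 0.24). Its entry also names MMP24OS and AL121753, so these values are those of the merged entry.

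Levels depend on the length by which counts were divided. The entry length implied by count and FPKM was set against the exon length of each of 52 factor genes. Over every transcript in GENCODE, the ratio was within 0.9 to 1.1 for 38 genes and over 1.5 for 7 (EIF3L, EIF6, EIF4E3, EIF3CL, EIF4A1, EIF4ENIF1 and EIF3C), with 5.09 for EIF3L the largest. Over the smaller basic set of transcripts, it was within 0.9 to 1.1 for 7 and over 1.5 for 26, so a ranking of FPKM between genes depends on which transcripts are counted well beyond those 7. The FPKM levels of the 7 genes named describe long or merged entries and cannot be ranked against other factors. Fold changes between libraries are not altered by a common length, but in a merged entry they mix the genes named.

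**Figure D5:**
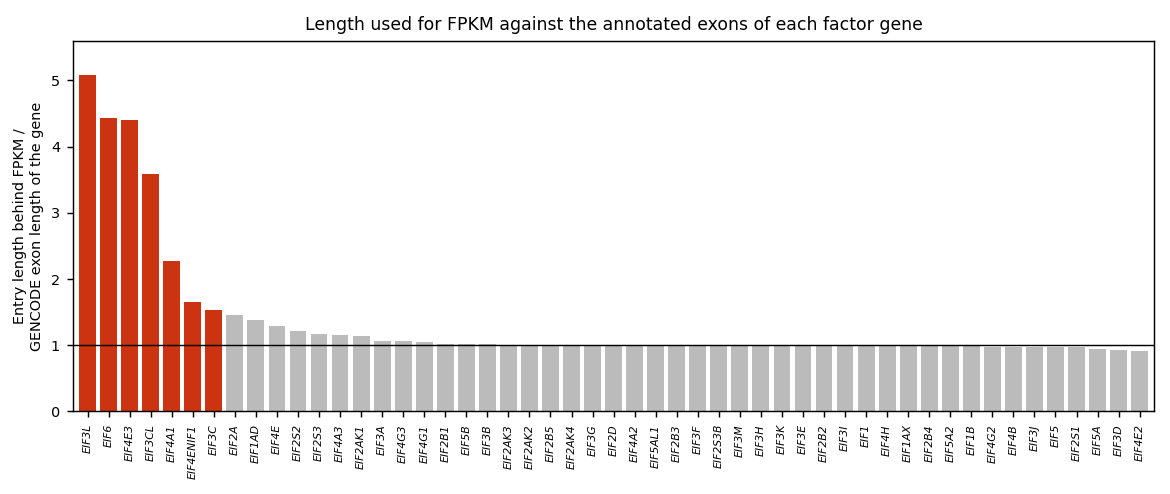
Ratio of the entry length behind the deposited FPKM to the exon length of the gene over every GENCODE transcript, by factor gene, with red bars for ratios over 1.5 and a line at 1. The ratio is near 1 for most genes and reaches 5.09 for EIF3L.

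Other genes of translation were taken from lists of 58 genes in all, of which 40 lay above DMSO and 18 below, with a median log2 fold change of 0.051. In the same fit 48.4% of all genes and 61.7% of the well-counted ones lay above, with medians of -0.011 and 0.031. The splits of the single lists below are to be read beside these shares. None passed an adjusted p of 0.05, and 2 had an unadjusted p under 0.05, both lower (2.54% of all genes were). Of the 17 inhibitors and regulators of eIF4F, 12 lay above DMSO and 5 below, and none had an unadjusted p under 0.05. Some of these intervals were wide. LARP1 read 65.0, 65.5, 30.6 and 68.5 FPKM (95% interval of the log2 fold change -1.29 to 0.54). PAIP2 read 21.7, 8.45, 8.41 and 22.7 FPKM (-1.42 to 1.59). The data leave a change in LARP1 and PAIP2 undecided. The eIF4E-binding proteins, which compete with eIF4G for eIF4E, were close to their DMSO levels. EIF4EBP1 read 42.8, 39.7, 43.9 and 39.8 FPKM and EIF4EBP2 45.2, 43.0, 45.5 and 44.8 FPKM, with log2 fold changes of 0.05 (95% interval -0.20 to 0.30) and 0.06 (-0.09 to 0.21). EIF4EBP3 lay on the entry of ANKHD1, at 11.4 to 12.3 FPKM.

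Of the 11 regulators of eIF2, 9 lay above DMSO and 2 below. The gene with an unadjusted p under 0.05 was DDIT3, which encodes CHOP, a stress factor induced downstream of eIF2 phosphorylation. DDIT3 read 15.6, 13.2, 8.54 and 10.4 FPKM on an entry that also names AC022506. Both SF1-8 libraries were below both DMSO libraries, as in 20.0% of all genes. The log2 fold change of DDIT3 was -0.58 (95% interval -0.95 to -0.21, adjusted p 0.970 by edgeR with Benjamini-Hochberg adjustment). ATF4, whose mRNA is translated when eIF2 is phosphorylated, read 9.33, 9.41, 8.94 and 10.4 FPKM and overlapped between groups. Among the 9 mitochondrial translation factors, 4 lay above and 5 below, and MRRF, the mitochondrial ribosome recycling factor, read 3.76, 3.32, 2.30 and 2.25 FPKM. Its log2 fold change was -0.61 (95% interval -0.83 to -0.38), with an unadjusted p of 0.00085 and an adjusted p of 0.401 by edgeR. Of the 8 other initiation and recycling proteins, 5 lay above and 3 below, and of the 13 elongation and termination factors, 10 lay above and 3 below. None of the genes of these last lists had an unadjusted p under 0.05.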

How the data were processed

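Total RNA of K562-U2AF1 S34F cells was depleted of ribosomal RNA and sequenced. The submitters' processing notes name cutadapt, FastQC, Bowtie2, HISAT2, StringTie and the hg38 build, with roles, versions and the test not given in the sources used here. The authors deposited 1 table with an FPKM value and a count per entry and library, where 0.0001 stands for an FPKM of 0. The deposited counts were treated as estimated counts, as their scale to reads is not given and 1 count need not be 1 read, so no counting interval was computed and precision comes from the spread of 2 libraries per group. Entries are of a merged assembly and may hold several genes. The 2095 of 64873 entries without a gene name held 0.372% of the counts and were left out. The authors' columns of samples were all mapped by label.

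Counts were fitted in R 4.3.3 with edgeR 4.0.16 (TMM, filterByExpr, quasi-likelihood test, two-sided, Benjamini-Hochberg over 26167 genes) and the script was tested on simulated data. Alternatives were DESeq2 1.42.0, limma 3.58.1 on log2(FPKM + 1) and log2(FPKM + 0.1), a filter of FPKM above 2, no filter, no TMM, counts divided by 4, coding entries only, a replicate block, and leaving out each library. With 2 libraries against 2, an exact permutation test cannot give a p below 0.333. The members and all gene lists were chosen with earlier results of these data known. The text names every member tested. It gives the standard error, interval and p for the 10 of smallest p, and the interval or standard error for fixed core members. It also names listed pathway genes with an unadjusted p under 0.05, the eIF4E-binding proteins, and ATF4 and GATA1, chosen for their role. LARP1 and PAIP2 were added for their spread after the values were seen. Coding identity and exon lengths come from the full GENCODE v29 annotation (the basic set was tried for lengths after seeing the data), and start-site sequences from RefSeq, with 45 members matched and 8 not.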

Additional observations from a re-analysis of the deposited data

How the results depend on the processing

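With 2 libraries per group, every interval given is wide for genes whose replicates disagree, and an entry that merges genes cannot be split by any alternative run here. No alternative brought a factor gene past an adjusted p of 0.05. Over all genes the number past it was 11, and it was 150 by DESeq2, 31 without a filter on low counts, 0 with coding entries alone, 0 by limma on log2(FPKM + 1), 0 on log2(FPKM + 0.1) and 1 with an FPKM above 2, and it ran from 0 to 30 when each library was left out in turn. Of all genes, 4.33% had an unadjusted p under 0.05 by edgeR and 3.50% by DESeq2. No share is given for the other runs listed here, so their counts of factor genes cannot be set against other genes. Factor genes with an unadjusted p under 0.05 numbered 2, and 4 by DESeq2 and 4 without a filter. They numbered 1 with counts divided by 4, 1 with coding entries alone, 1 without TMM and 0 in each of the 3 limma fits. Their median log2 fold change was 0.045, and 0.052 by DESeq2, 0.052 without a filter, 0.035 with counts divided by 4, 0.027 with coding entries alone, 0.016 in each of the 3 limma fits, 0.0022 without TMM, and 0.029 to 0.053 when each library was left out. The causes were not tested.

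With the replicate number as a block, 0 genes of the table passed an adjusted p of 0.05 by edgeR. At an unadjusted p under 0.05 it gave 5 factor genes, EIF3J, EIF4A1 and EIF5 besides EIF2AK2 and EIF2A, beside 3.71% of all genes. Taken over many genes, libraries of the same number did not deviate together (r = 0.0165 over 26167 genes and -0.075 over the 51 factor genes, which are not independent). Such a correlation cannot decide whether single genes vary with the replicate number. In EIF3J, EIF4A1 and EIF5, replicate 1 read above replicate 2 in both groups, and an effect of the number in them was not tested. The labels name no pairing beyond the number, and the main fit used none.

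Signs turned in genes whose reported log2 fold change lay between -0.14 and 0.10. Without TMM the log2 fold change was -0.0051 for EIF1, -0.033 for EIF1B, -0.015 for EIF2B4, -0.0027 for EIF2S2, -0.0051 for EIF2S3, -0.0017 for EIF3I, -0.034 for EIF3M, -0.030 for EIF4ENIF1, -0.041 for EIF4G2, -0.028 for EIF4G3 and -0.033 for EIF6. With coding entries alone it was -0.0061 for EIF1B, -0.0081 for EIF3M, -0.0052 for EIF4ENIF1, -0.015 for EIF4G2, -0.0045 for EIF4G3 and -0.0093 for EIF6, and with counts divided by 4 it was -0.0067 for EIF4G2 and -0.0013 for EIF6. By limma on log2(FPKM + 1), with or without the FPKM filter, it was -0.012 for EIF1B, -0.014 for EIF3M, -0.0087 for EIF4ENIF1, -0.021 for EIF4G2, -0.0078 for EIF4G3 and -0.013 for EIF6, and on log2(FPKM + 0.1) -0.012 for EIF1B, -0.015 for EIF3M, -0.011 for EIF4ENIF1, -0.022 for EIF4G2, -0.0089 for EIF4G3 and -0.014 for EIF6. When each library was left out, where a lone library is assumed to vary like the others, the sign turned in genes with ranges of -0.014 to 0.10 for EIF1, -0.053 to 0.24 for EIF1AX, -0.052 to 0.088 for EIF1B, -0.035 to 0.24 for EIF2AK1, -0.15 to 0.11 for EIF2B2, -0.17 to 0.018 for EIF2D, -0.0034 to 0.11 for EIF2S1, -0.056 to 0.025 for EIF3B, -0.38 to 0.068 for EIF3G, -0.27 to 0.0022 for EIF3H, -0.030 to 0.12 for EIF3I, -0.0065 to 0.16 for EIF3K, -0.19 to 0.064 for EIF3L, -0.0097 to 0.044 for EIF3M, -0.10 to 0.0061 for EIF4A3, -0.55 to 0.64 for EIF4B, -0.012 to 0.052 for EIF4ENIF1, -0.13 to 0.043 for EIF4G1, -0.012 to 0.033 for EIF4G2, -0.068 to 0.11 for EIF4G3, -0.013 to 0.12 for EIF4H, -0.082 to 0.052 for EIF5B and -0.067 to 0.10 for EIF6.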
